A study of Mus musculus with 16 samples.

Results

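The 10 genes described here mark regulatory T cells, the CD4 T cells that hold immune responses in check. They were taken by name from a table of 35647 genes measured by RNA sequencing of lamina propria immune cells, the mixed leukocytes under the gut epithelium. They are the transcription factors *Foxp3*, *Ikzf2* and *Ikzf4*, the surface receptors *Il2ra*, *Ctla4*, *Tnfrsf4*, *Tnfrsf18*, *Tigit* and *Gpr83*, and the cytokine *Il10*. Each had 1 row in the table, and all 10 passed the filter on low counts in every comparison. Mice of wild-type genotype had been reared germ free and then carried a single bacterium for 5 weeks. In 4 mice it was wild-type (WT) *Bifidobacterium breve*, and in 4 it was a Δchat strain of it that makes no acetylcholine. Cells of colon and of ileum were isolated on a 40% and 80% Percoll gradient, which gave 4 groups of 4 libraries, 1 per strain and tissue. The ages and sexes of the mice are not given in the sources used here. Replicates 1 to 4 of a strain are taken as mice 1 to 4, each giving a colon and an ileum library. The cells were not sorted, so a level is that of the whole mixture.

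Foxp3 is the transcription factor that defines the regulatory T cell lineage, and loss of it causes fatal autoimmunity. These cells depend on interleukin 2, which they bind with a high-affinity receptor, and they restrain other cells through inhibitory receptors and through secreted interleukin 10. In the gut they help to maintain tolerance of food and commensal bacteria.

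Libraries held between 15940467 and 23612561 estimated counts. Levels are given in CPM, the count of a gene relative to library size, with TMM scaling over the 16 libraries. A log2 fold change comes from the edgeR quasi-likelihood fit and is Δchat minus WT or ileum minus colon. Its standard error was derived from the test, as the absolute log2 fold change over the square root of the F statistic. Adjusted p values are Benjamini-Hochberg values over all genes tested. Every gene of the lists of T cell, B cell, plasma cell, macrophage, dendritic cell, stromal and epithelial markers had a count in at least 1 library, which is a weak check. In every library the T cell markers summed to at least 467 CPM, the B cell markers to 388 CPM and the macrophage markers to 300 CPM. Dendritic cell markers summed to at least 671 CPM, stromal markers to 2332 CPM and plasma cell markers to 17806 CPM, so the samples were mixed. The epithelial markers summed to 3733 CPM in Δchat colon replicate 3 and to 49.1 to 472 CPM in the other 15 libraries. The labels name replicates but give no cage or isolator, so p values of the strain comparisons measure the spread between these mice. The main fits between tissues and of the difference take the 16 libraries as independent, without a term for the mouse. Fits with the mouse as a block are given beside them. In bulk RNA, fewer regulatory T cells and less of a transcript per cell cannot be told apart.

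Mouse 2 of the Δchat strain stood apart in these genes in both tissues. Its ileum library was known to be high in them when the genes were chosen, so the counts in this paragraph describe that choice and test nothing. *Foxp3* reached 73.5 CPM in its colon and 88.4 CPM in its ileum, which was 6.08 and 8.24 times the mean of the other 3 Δchat mice. *Tnfrsf4*, a costimulatory receptor also known as OX40, was 4.52 and 5.43 times that mean. *Ikzf2*, *Tnfrsf18* and *Tigit* were at least 2-fold above it in both tissues as well. That makes 5 of the 9 members with a mean of at least 1 CPM, where 0.526% of all 13872 genes of that level met the same rule. All 9 were higher in this mouse in both tissues, as were 25.2% of all genes. Of the further regulatory T cell genes, 6 of 26 were at least 2-fold higher in both tissues: *Tnfrsf9*, *Lag3*, *Klrg1*, *Ccr4*, *Il1rl1* and *Plagl1*. Of the general T cell markers, 2 of 21 were. The T cell markers summed to 884 CPM in colon of this mouse against 467 to 750 CPM in the other 3, and to 1229 CPM against 896 to 1065 CPM in ileum. The macrophage markers moved with it too, at 801 CPM against 389 to 621 CPM in colon and at 3615 CPM against 830 to 1661 CPM in ileum. The type 2 lymphocyte markers, a list that shares *Gata3*, *Il1rl1* and *Areg* with the regulatory T cell lists, summed to 182 CPM against 111 to 119 CPM in colon and to 283 CPM against 122 to 136 CPM in ileum. The follicular helper T cell markers summed to 483 CPM against 297 to 428 CPM in colon and to 471 CPM against 394 to 401 CPM in ileum. Of that list, *Pdcd1* had log2 differences of 2.21 in colon and 2.20 in ileum, and *Cxcr5* had 0.51 and -1.71. The part of these cells in the result was not tested. The main fits of the members that rest on the Δchat groups are given with and without this mouse.

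**Figure D1:**
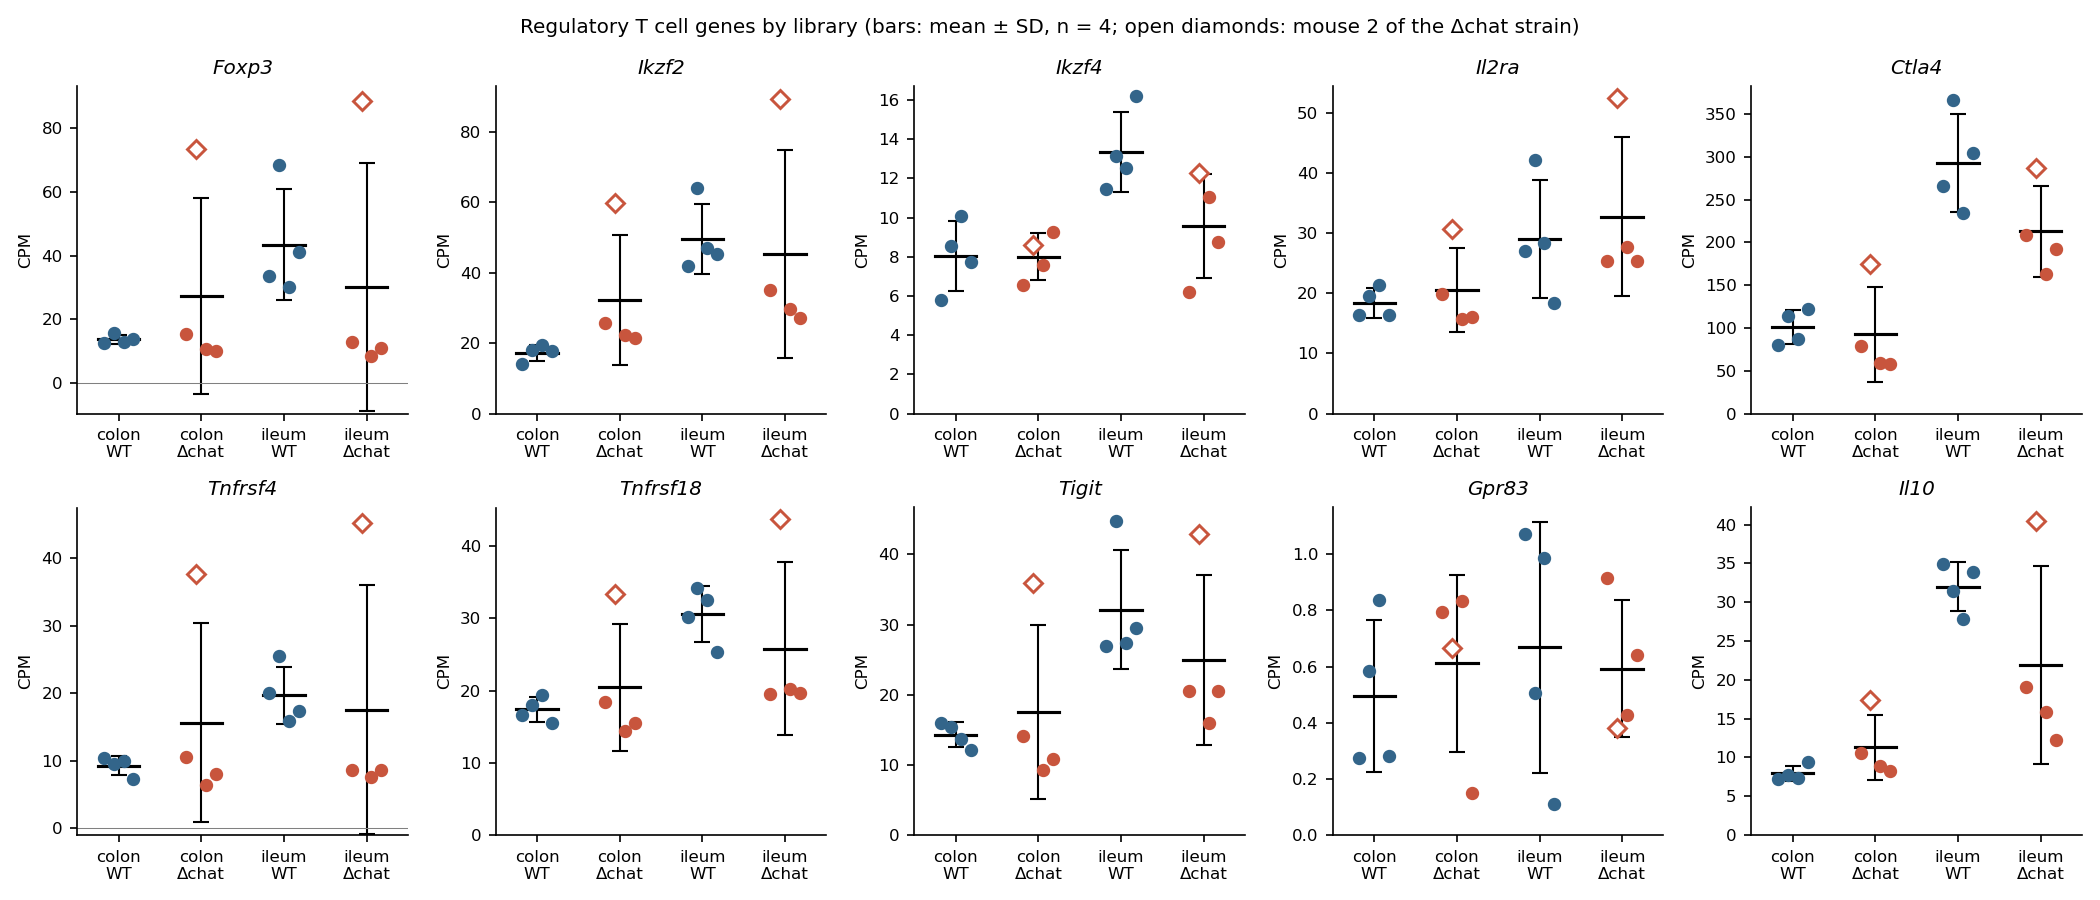
CPM of the 10 members in each library (vertical axis, CPM; horizontal axis, group), with the mean and SD of 4 libraries as bars and Δchat mouse 2 as open diamonds. *Foxp3* in the other 3 Δchat mice lies between 8.49 and 15.4 CPM in both tissues, while mouse 2 lies at 73.5 and 88.4 CPM.

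**Figure D2:**
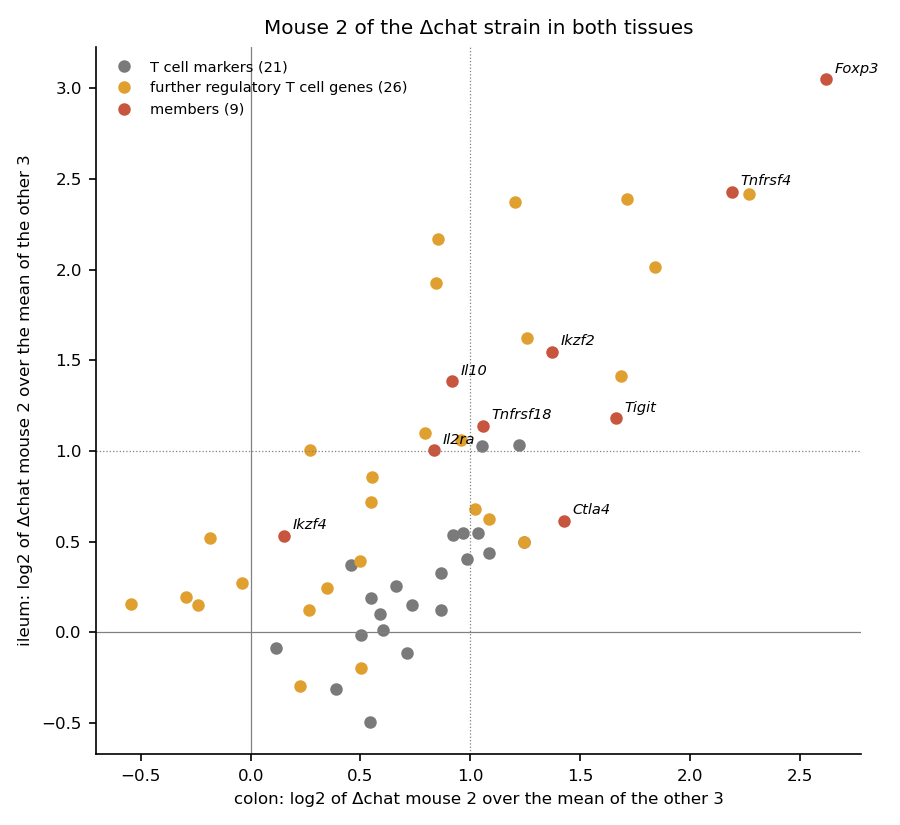
Each point is a gene, placed by the log2 ratio of Δchat mouse 2 to the mean of the other 3 Δchat mice in colon (horizontal) and ileum (vertical); dotted lines mark a 2-fold difference. *Foxp3* lies at 2.62 and 3.05, and 2 of 21 T cell markers lie past the 2-fold line in both tissues.

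The promoters of 3 members are shown because of the members *Foxp3* and *Tnfrsf4* differed most in that mouse and *Ctla4* is the most abundant receptor among them by CPM. They are the 250 bases before the annotated start in RefSeq (GRCm38.p6), 5′ to 3′ on the plus strand, which is the strand of all 3 genes. *Foxp3* has 2 starts in that table, and the first is printed, at chrX:7579426-7579675. *Tnfrsf4* is at chr4:156013445-156013694 and *Ctla4* at chr1:60908775-60909024. Capitals mark matches to GGAAA on either strand, the core recognised by NFAT, a factor that T cell receptor signalling activates.
Foxp3: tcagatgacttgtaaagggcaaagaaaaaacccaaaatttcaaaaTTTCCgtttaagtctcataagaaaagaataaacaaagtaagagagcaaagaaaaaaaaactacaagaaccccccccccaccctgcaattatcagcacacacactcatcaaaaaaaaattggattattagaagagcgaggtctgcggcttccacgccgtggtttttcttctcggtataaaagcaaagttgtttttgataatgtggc
Tnfrsf4: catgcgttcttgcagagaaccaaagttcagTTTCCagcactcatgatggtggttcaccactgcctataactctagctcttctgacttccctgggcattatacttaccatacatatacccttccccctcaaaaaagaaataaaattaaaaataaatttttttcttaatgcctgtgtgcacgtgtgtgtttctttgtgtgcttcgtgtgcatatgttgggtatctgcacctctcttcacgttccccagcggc
Ctla4: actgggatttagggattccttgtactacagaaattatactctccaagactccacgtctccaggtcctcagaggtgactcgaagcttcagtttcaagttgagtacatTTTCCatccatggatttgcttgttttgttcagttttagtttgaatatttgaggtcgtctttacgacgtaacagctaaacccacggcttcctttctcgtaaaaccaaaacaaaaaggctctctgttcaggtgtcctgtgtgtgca
The table held promoters of 7 of the 10 members, and 6 of these 7 had a GGAAA match in the window. So did 55.6% of all 32851 promoters of that length, and the match is a description only. STAT motifs (TTCNNNGAA, both strands) were in 2 of 7 and in 7.02% of all, for *Foxp3* only at its second start, which is not printed. Runx motifs (TGTGGT, both strands) were in 1 of 7 and in 14% of all. Members were counted over all their starts, while the shares of all are per promoter. AP-1 motifs (TGANTCA) and forkhead motifs (TGTTTAC) were in 0 of 7, and in 6.75 and 3.17% of all.

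Among the transcription factors, *Foxp3* (ENSMUSG00000039521) was low and even in colon with WT *B. breve*, at 12.6, 15.6, 12.8 and 13.9 CPM in replicates 1 to 4. In ileum with WT it stood at 33.5, 68.5, 30.2 and 41.2 CPM, above every colon WT library. With the Δchat strain it was 15.4, 73.5, 10.8 and 10.03 CPM in colon and 12.8, 88.4, 8.49 and 10.9 CPM in ileum. In ileum, replicates 1, 3 and 4 were thus below all WT libraries, and replicate 2 was above all of them. Exons of *Foxp3* overlap those of *Ccdc22* and *Ppp1r3f* on the other strand in the GENCODE annotation of GRCm38, and the library chemistry does not mark the strand. Those genes ran from 12.3 to 28.5 CPM and from 3.81 to 7.59 CPM over the 16 libraries.

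*Ikzf2*, which encodes Helios, a zinc finger factor found in most regulatory T cells that arise in the thymus, had 13.96, 17.9, 19.4 and 17.7 CPM in WT colon. In colon Δchat it had 25.7, 59.9, 22.2 and 21.5 CPM, so that the groups did not overlap. In ileum WT it had 41.9, 64.1, 47.1 and 45.3 CPM, and in Δchat ileum 35.1, 89.3, 29.6 and 27.2 CPM. With replicate 2 set aside, the Δchat libraries were above all WT libraries in colon and below all of them in ileum, the latter as in 6.77% of all genes. The share of all genes without overlap in colon, with or without replicate 2, was not taken. *Ikzf4*, which encodes Eos, a partner of Foxp3 in gene repression, varied less. It had 5.80 to 10.1 CPM in WT colon, 6.57 to 9.27 CPM in Δchat colon, 11.4 to 16.2 CPM in WT ileum, and 6.21, 12.3, 11.1 and 8.74 CPM in Δchat ileum.

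Among the receptors, *Ctla4*, an inhibitory receptor that takes the ligands of CD28 off antigen-presenting cells, had 80.6, 114, 86.7 and 122 CPM in WT colon and 266, 366, 234 and 304 CPM in WT ileum. With Δchat it had 78.5, 174, 59.4 and 58.2 CPM in colon and 209, 287, 163 and 193 CPM in ileum. Every mouse had more of it in ileum than in colon, and with Δchat the tissues overlapped through the colon of mouse 2. *Tnfrsf4* had 7.28 to 10.4 CPM in WT colon and 15.9 to 25.4 CPM in WT ileum. With Δchat it had 10.6, 37.6, 6.34 and 8.01 CPM in colon and 8.70, 45.2, 7.63 and 8.62 CPM in ileum. In Δchat mice 1, 3 and 4 all 6 libraries thus lay between 6.34 and 10.6 CPM. *Tnfrsf18*, which encodes the costimulatory receptor GITR, had 15.5 to 19.4 CPM in WT colon and 25.3 to 34.2 CPM in WT ileum. With Δchat it had 18.4, 33.4, 14.4 and 15.5 CPM in colon and 19.6, 43.7, 20.2 and 19.6 CPM in ileum.

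*Tigit*, an inhibitory receptor for Pvr, had 12.2 to 15.99 CPM in WT colon and 27.0, 44.7, 27.4 and 29.5 CPM in WT ileum. With Δchat it had 14.2, 35.9, 9.26 and 10.9 CPM in colon and 20.5, 42.9, 15.9 and 20.5 CPM in ileum. *Il2ra*, the alpha chain that gives the interleukin 2 receptor its high affinity, overlapped between strains in both tissues. It had 16.3 to 21.3 CPM in WT colon, 19.8, 30.6, 15.7 and 16.03 CPM in Δchat colon, 27.0, 42.1, 28.3 and 18.4 CPM in WT ileum, and 25.4, 52.5, 27.7 and 25.3 CPM in Δchat ileum. *Gpr83*, a G protein-coupled receptor found on regulatory T cells, was at 2 to 22 counts per library, 0.111 to 1.07 CPM, and its differences were not detectable at this depth.

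*Il10*, the suppressive cytokine that T cells, macrophages and B lineage cells of the gut can all make, showed the largest log2 step between tissues with WT. It had 7.28, 7.73, 7.39 and 9.42 CPM in WT colon and 34.9, 31.4, 27.8 and 33.9 CPM in WT ileum. With Δchat it had 10.6, 17.5, 8.93 and 8.22 CPM in colon and 19.1, 40.5, 15.8 and 12.3 CPM in ileum. All ileum WT libraries were above the 3 ileum Δchat libraries other than replicate 2.

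With WT *B. breve*, ileum carried more of the regulatory T cell genes than colon. All 10 members were higher in ileum in the fit, with a median log2 fold change of 1.12 against -0.04 over all genes, and 6 of 10 passed, where 13.7% of all genes passed as higher. *Il10* rose most, by 2.01 ± 0.32 (adjusted p = 9.0e-04), followed by *Ctla4* (1.54 ± 0.31, adjusted p = 0.00369) and *Ikzf2* (1.52 ± 0.39, adjusted p = 0.0120). *Tigit* (1.16, adjusted p = 0.0395), *Tnfrsf18* (0.81, adjusted p = 0.0441) and *Ikzf4* (0.73, adjusted p = 0.0189) rose less. *Foxp3* had 1.66 ± 0.78 and did not pass (adjusted p = 0.128), nor did *Tnfrsf4* (1.08, adjusted p = 0.208), *Il2ra* (0.66, adjusted p = 0.0999) or *Gpr83* (0.41, adjusted p = 0.652). The spread of Δchat mouse 2 enters this fit through the shared dispersion. Without its 2 libraries, 9 of 10 passed, all but *Gpr83*, where 14.5% of all genes did, and *Foxp3* had an adjusted p of 4.6e-04. Its ileum library was singled out for being high in these genes, so leaving the mouse out narrows their spread by construction. The share of all genes is thus not a like comparison for that fit. Without colon WT replicate 1, 3 of 10 passed, where 1493 of all 15396 genes passed as higher. With the mouse as a block 9 of 10 passed too, where 12.7% of all genes did.

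The T cell markers rose with the tissue as well, with 15 of 21 passing as higher in ileum and 1 as lower in WT mice (median 0.87), and the macrophage markers, with 9 of 10 passing (median 2.17). All 10 B cell markers fell (median -2.09). With a T cell score as covariate 1 member of 10 passed, *Il10* at 1.29 (adjusted p = 0.0308), where 1771 of all 15198 genes passed as higher. The values of 4 of 10 turned below 0. These were *Foxp3* at -0.69 ± 0.83 (adjusted p = 0.567), *Tnfrsf4* at -0.74 ± 0.63 (adjusted p = 0.408), *Tigit* at -0.20 ± 0.32 (adjusted p = 0.669) and *Il2ra* at -0.07 ± 0.35 (adjusted p = 0.895). For the macrophage markers, their part in the *Il10* difference was not tested.

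With the Δchat strain, the same comparison of tissues gave smaller values for 9 of the 10 members. The median was 0.41, and 1 of 10 passed, where 8.31% of all genes passed as higher. *Ctla4* rose by 1.20 ± 0.31 (adjusted p = 0.0198). *Il10* had 0.95 ± 0.31 (adjusted p = 0.0582), *Ikzf2* 0.49 ± 0.38 (adjusted p = 0.430) and *Foxp3* 0.13 ± 0.76 (adjusted p = 0.932). Without mouse 2, *Ctla4* (1.52 ± 0.20, adjusted p = 0.00107) and *Il10* (0.76 ± 0.17, adjusted p = 0.0159) passed, 2 of 10 where 5% of all genes did, and *Foxp3* had -0.18 ± 0.28 (adjusted p = 0.776). Here too, leaving out that mouse narrows the spread of these genes by construction. With the mouse as a block 6 of 10 passed, where 7.73% of all genes did, and *Foxp3* was not among them. *Ctla4* did not pass without any 1 of the 3 colon Δchat libraries 1, 3 and 4 (adjusted p = 0.0566, 0.0556 and 0.0560) or without ileum Δchat replicate 2 (0.0639). With the T cell score as covariate 0 of 10 passed, where 387 of all 15198 genes passed as higher. There *Ctla4* had 0.29 ± 0.31 (adjusted p = 0.598) and *Foxp3* -2.08 ± 0.85 (adjusted p = 0.158). Over the libraries left out in turn the number that passed ran from 0 to 4. The latter was without colon Δchat replicate 2, where 1044 of all 15369 genes passed as higher. Of the T cell markers 15 of 21 passed as higher in these mice too, with a median of 0.89.

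The step from colon to ileum was next taken within each mouse, where the WT and Δchat mice separated in 5 members. For *Foxp3*, log2 CPM in ileum minus colon was 1.397, 2.13, 1.23 and 1.56 in WT mice 1 to 4 and -0.27, 0.27, -0.35 and 0.12 in Δchat mice 1 to 4. For *Il10* it was 2.25, 2.01, 1.90 and 1.84 in WT mice and 0.84, 1.21, 0.82 and 0.57 in Δchat mice. For *Ikzf2* it ran from 1.27 to 1.83 in WT mice and from 0.34 to 0.58 in Δchat mice. The 4 WT mice were above the 4 Δchat mice in these 3 members and in *Tnfrsf4* and *Tnfrsf18*, which makes 5 of 10, where 2.08% of all genes showed the same. Mouse 2 is among the Δchat mice in this count. For *Ctla4*, *Il2ra*, *Tigit*, *Ikzf4* and *Gpr83* the strains overlapped.

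**Figure D3:**
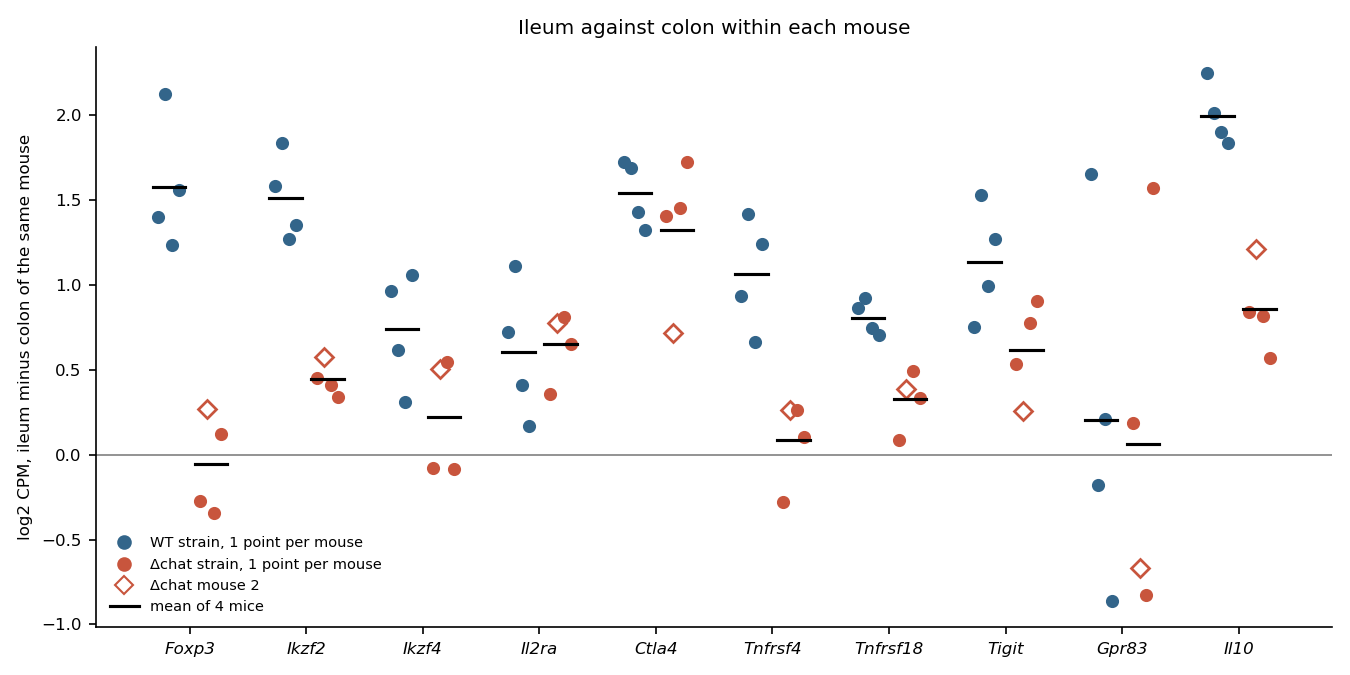
Log2 CPM in ileum minus colon of the same mouse (vertical axis) for each member, 1 point per mouse and the mean of 4 as a bar. For *Foxp3* the WT mice lie between 1.23 and 2.13 and the Δchat mice between -0.35 and 0.27, mouse 2 (open diamond) included.

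The test of that difference, the strain effect in ileum minus that in colon, called 0 of 10 members, where 0.0592% of all genes were called. By edgeR 1 member was lower at an unadjusted p below 0.05, where 3.3% of all genes were. DESeq2 and limma-voom called 0, with 2 and 5 lower at that level, where 4.4% and 6.42% of all genes were. That member was *Il10*, with -1.06 ± 0.44 (adjusted p = 0.625), while *Foxp3* had -1.52 ± 1.09 (adjusted p = 0.675). With the mouse as a block, *Foxp3* had -1.64 ± 0.22 (adjusted p = 0.0988), *Ikzf2* -1.07 ± 0.14 (adjusted p = 0.0890) and *Il10* -1.14 ± 0.17 (adjusted p = 0.135). None passed there either, where 0.0197% of all genes did, and 6 of 10 were lower at an unadjusted p below 0.05, where 4.15% of all genes were. Without mouse 2 and without the block, 5 of 10 were lower at that level, where 6.12% of all genes were, and 0 passed, where 0.117% did. There *Il10* had -1.25 ± 0.22 (adjusted p = 0.0551), *Ikzf2* -1.12 ± 0.22 (adjusted p = 0.0678), *Foxp3* -1.83 ± 0.37 (adjusted p = 0.0765) and *Tnfrsf4* -1.08 ± 0.28 (adjusted p = 0.234). *Ctla4* had -0.02 ± 0.26 (adjusted p = 0.979). The ileum library of mouse 2 was singled out for being high in these genes. Leaving the mouse out therefore changes their Δchat means and narrows their spread by construction, and the shares of all genes are not a like comparison.

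The strain comparison asks whether immune cells of the gut differ with the loss of bacterial acetylcholine. In ileum, 9 of 10 members were lower with Δchat and 0 passed, where 0.0207% of all genes passed. By edgeR 2 members were lower at an unadjusted p below 0.05, *Ctla4* (-0.49 ± 0.19, adjusted p = 0.395) and *Ikzf4* (-0.50 ± 0.21, adjusted p = 0.445), where 6.1% of all genes were. *Foxp3* had -0.57 ± 0.77 (adjusted p = 0.824) and *Il10* -0.58 ± 0.33 (adjusted p = 0.566). DESeq2 also called 0, with 2 lower at an unadjusted p below 0.05, where 973 of all 14496 genes were. Limma-voom with quality weights called 0, with 7 lower at that level and a smallest adjusted p of 0.0654, where 13.1% of all genes were lower at that level.

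Without replicate 2, all 10 were lower in ileum. That library was singled out for being high in these genes, so leaving it out lowers the Δchat mean by construction. At an unadjusted p below 0.05 there were then 8 of 10 lower, where 7.41% of all genes were, and 0 passed, where 0.0475% of all genes did. *Foxp3* had -2.04 ± 0.31, *Tnfrsf4* -1.26 ± 0.18 and *Il10* -1.05 ± 0.16, each at an adjusted p of 0.0823. *Tnfrsf18* had -0.64 ± 0.12 (adjusted p = 0.104), *Ikzf2* -0.71 ± 0.16 (adjusted p = 0.158), *Ctla4* -0.66 ± 0.16 (adjusted p = 0.191), *Tigit* -0.78 ± 0.20 (adjusted p = 0.209) and *Ikzf4* -0.62 ± 0.22 (adjusted p = 0.307). The other 3 Δchat libraries lay below all 4 WT libraries in these 8 members, as they did in 6.77% of all genes. *Il2ra* had -0.17 ± 0.25 and *Gpr83* -0.06 ± 0.65, and both overlapped. The T cell markers summed to 896 to 1065 CPM in these 3 libraries and to 1105 to 1423 CPM in WT, without overlap. Stromal markers summed to 2399, 7854 and 3399 CPM in them and to 4927 to 7632 CPM in WT, and B cell markers to 2061, 388 and 1741 CPM and to 600 to 1274 CPM.

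In colon, 9 of 10 members were higher with Δchat and 0 passed, where 0.00682% of all genes passed. *Ikzf2* had 0.91 ± 0.33 (adjusted p = 0.335) and was the 1 member of 10 higher at an unadjusted p below 0.05, where 7.99% of all genes were. *Foxp3* had 1.004 ± 0.66 (adjusted p = 0.530), *Tnfrsf4* 0.76 ± 0.54 (adjusted p = 0.560) and *Il10* 0.52 ± 0.24 (adjusted p = 0.386). DESeq2 and limma-voom called 0, with 1 and 2 higher at an unadjusted p below 0.05. At that level 1090 of all 14660 genes were higher by DESeq2 and 6.5% of all genes by limma-voom. Without replicate 2, 7 of 10 were lower and 3 higher, and 0 passed, where 0.00674% of all genes did. *Foxp3* then had -0.18 ± 0.18 (adjusted p = 0.668). *Ctla4* had -0.61 ± 0.18, with the other 3 Δchat libraries below all WT libraries, and *Ikzf2* 0.43 ± 0.14, with the 3 above all WT libraries, each at an adjusted p of 0.304. The share of all genes that separated so in colon was not taken.

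**Figure D4:**
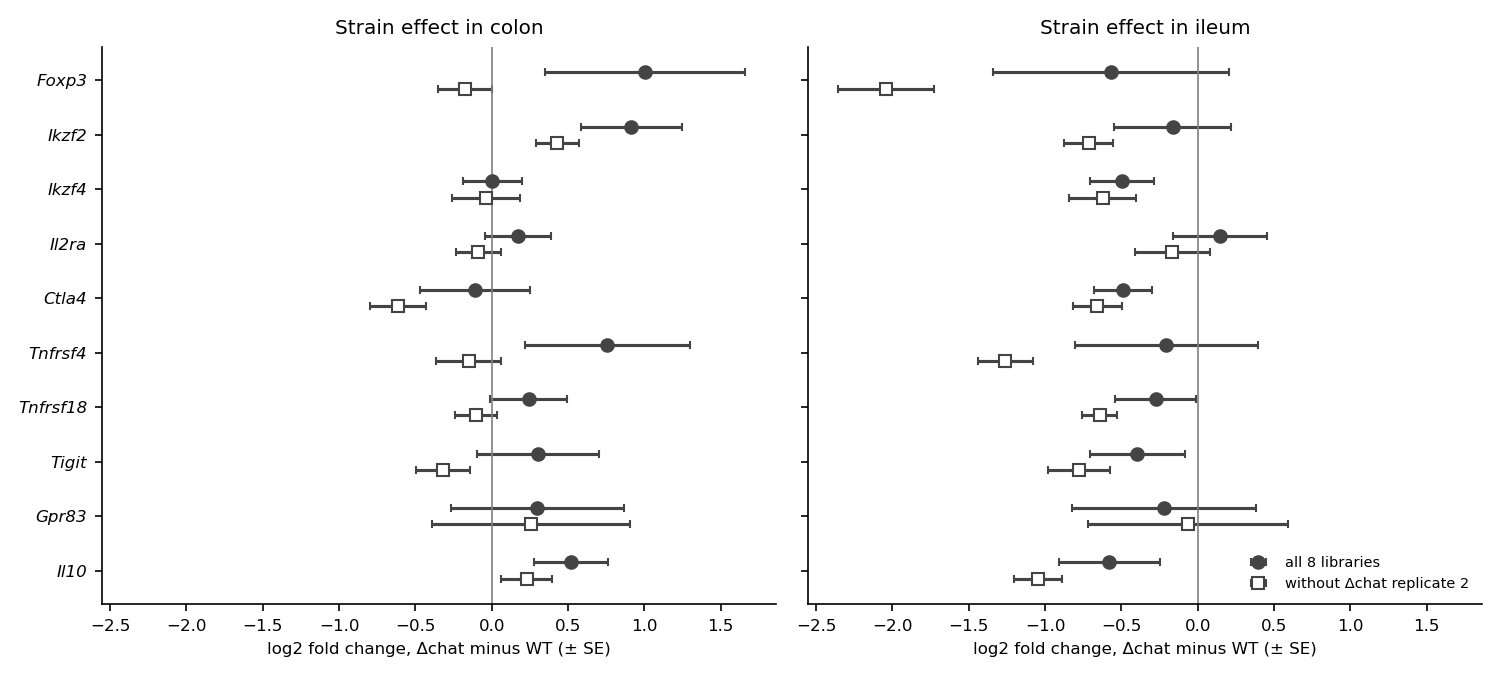
Log2 fold change of each member, Δchat minus WT, with its standard error, in colon (left) and ileum (right), from all 8 libraries of the tissue (filled) and without Δchat replicate 2 (open). *Foxp3* goes from 1.004 to -0.18 in colon and from -0.57 to -2.04 in ileum.

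Regulatory T cells are a share of T cells, so member counts were also divided by the summed counts of *Cd3d*, *Cd3e* and *Cd3g*, which encode the signalling chains of the T cell receptor complex. *Foxp3* per *Cd3* count was 0.245, 0.364, 0.279 and 0.387 in WT colon and 0.307, 1.095, 0.350 and 0.383 in Δchat colon. In ileum it was 0.447, 0.666, 0.368 and 0.448 in WT and 0.162, 0.836, 0.125 and 0.137 in Δchat. On this scale the colon libraries of both strains overlapped apart from replicate 2, and in ileum 3 Δchat libraries were below all WT libraries. Of 20 exact 2-sided permutation tests per *Cd3* count (10 members, 2 tissues), 0 passed after adjustment, nor did any of 20 per *Cd4* count or 20 per library total. *Ikzf2* in colon (log2 difference 0.88) and *Ctla4* in ileum (-0.38) did not overlap between strains and had the smallest p that 4 against 4 libraries allow, 0.0286 (exact permutation test, Benjamini-Hochberg 0.286). *Ctla4* per *Cd3* count was 2.85 to 3.56 in WT ileum and 2.39 to 2.71 in Δchat ileum, replicate 2 included. Per count of *Cd4*, the coreceptor of the T cell class that holds regulatory T cells, *Ctla4* in ileum overlapped, at 2.34 to 3.16 in WT and 1.86 to 2.78 in Δchat (log2 difference -0.17, exact permutation p = 0.400, Benjamini-Hochberg 0.779). *Ikzf2* per *Cd4* count in colon did not overlap, at 0.386 to 0.552 in WT and 0.685 to 0.910 in Δchat (log2 difference 0.73, exact permutation p = 0.0286, Benjamini-Hochberg 0.571). The share of all genes without overlap per *Cd3* or *Cd4* count was not taken. Without replicate 2, *Foxp3* in ileum had a log2 difference of -1.74 per *Cd3* count (exact permutation p = 0.0571, the smallest that 3 against 4 libraries allow, Benjamini-Hochberg 0.163). The same values of p came with *Tnfrsf4* (-1.01), *Il10* (-0.83), *Tigit* (-0.52), *Ikzf2* (-0.47) and *Ctla4* (-0.41) in ileum and *Ikzf2* (0.78) in colon. Leaving out the library that was singled out for being high in these genes lowers these ileum values by construction.

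**Figure D5:**
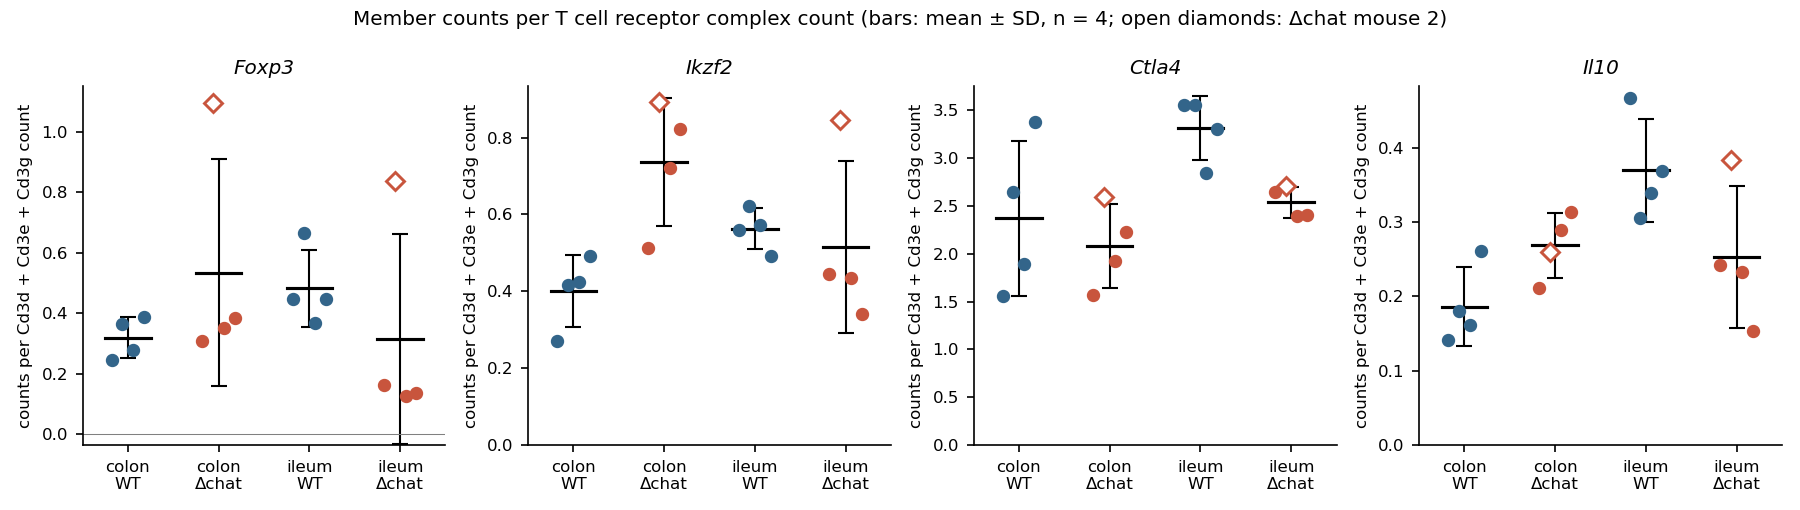
Counts of *Foxp3*, *Ikzf2*, *Ctla4* and *Il10* per summed count of *Cd3d*, *Cd3e* and *Cd3g* (vertical axis) in each library by group, with the mean and SD of 4 and Δchat mouse 2 as open diamonds. *Ctla4* in ileum runs from 2.85 to 3.56 with WT and from 2.39 to 2.71 with Δchat.

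Further genes of regulatory T cells were tested too. Of 26 of them, 12 rose and 1 fell in ileum with WT (median 0.72), and 4 rose and 0 fell with Δchat (median 0.42). Over all 15198 genes, 2079 rose and 2301 fell with WT, and 1263 rose and 765 fell with Δchat. *Gzmb*, a granule protease, rose by 1.78 ± 0.19 with WT and 1.07 ± 0.18 with Δchat (adjusted p = 7.5e-05 and 0.00209). *Icos*, a costimulatory receptor, rose by 1.14 (adjusted p = 0.00436) and 0.76 (adjusted p = 0.0490), and *Socs2*, a target of STAT5, by 0.79 and 0.63. *Itgae*, the integrin chain CD103 that binds E-cadherin, rose by 1.34 with WT (adjusted p = 8.1e-04) and had 0.28 with Δchat (adjusted p = 0.397). Without Δchat mouse 2, 5 of the 26 rose with Δchat (median 0.33), and so did 5% of all genes. There *Gzmb* (0.97, adjusted p = 0.0188) and *Icos* (0.88, adjusted p = 0.00517) passed and *Socs2* did not (0.55, adjusted p = 0.0566). By strain 0 of the 26 passed in either tissue, with medians of 0.29 in colon and -0.21 in ileum against 0.01 and 0.01 over all genes. Without ileum Δchat replicate 2, 1 of the 26 passed, where 0.0475% of all genes did. It was *Tnfrsf9*, the costimulatory receptor 4-1BB, with -1.66 ± 0.13 (adjusted p = 0.00817), named after its values were seen. That library was singled out for being high in regulatory T cell genes, so leaving it out lowers the Δchat mean by construction. *Tnfrsf9* had 77.0, 94.8, 79.4 and 69.4 CPM in WT ileum and 26.9, 137, 27.5 and 22.4 CPM in Δchat ileum. With that library its value was -0.62 (adjusted p = 0.725). It was also the 1 of the 26 that passed for the difference of strain effect without mouse 2, where 0.117% of all genes did. Its value there was -1.58 ± 0.17 (adjusted p = 0.00368), under the same limit. With only the ileum library of mouse 2 left out, *Tnfrsf9* did not pass for that difference (-2.55 ± 0.65, adjusted p = 0.200). *Itgae* did pass there (-1.33 ± 0.24, adjusted p = 0.0404), where 35 of all 15400 genes did. With only the colon library left out, *Tnfrsf9* had -0.56 ± 0.68 (adjusted p = 0.752).

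In the pathways around these cells, 0 genes of any list passed by strain in colon or ileum, or in the difference between tissues, in the edgeR fits of all libraries. Of 27 transcription factors that act in regulatory T cells, 9 rose and 4 fell in ileum with WT and 3 rose and 1 fell with Δchat. Over all 15198 genes, 13.7% rose and 2301 fell with WT, and 8.31% rose and 765 fell with Δchat. The list counts in this and the next paragraph were not tested against those shares. *Prdm1*, which encodes Blimp-1, rose by 1.13 and 0.97, and *Rora* by 1.36 and 0.84. *Gata3* rose by 1.73 with WT (adjusted p = 0.00256) and had 0.61 with Δchat (adjusted p = 0.229). Of 16 interleukin 2 pathway genes, 7 rose and 1 fell with WT and 4 rose with Δchat. Its receptor's beta chain *Il2rb* rose by 0.89 and 0.73 and its feedback inhibitor *Socs1* by 0.77 and 0.67, while the related receptor *Il7r* rose by 1.04 with WT and had 0.54 with Δchat (adjusted p = 0.0694). Without Δchat mouse 2, *Prdm1*, *Rora*, *Il2rb* and *Socs1* passed with Δchat as well, *Il7r* passed at 0.54 (adjusted p = 0.0477), and *Gata3* had 0.42 (adjusted p = 0.382).

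Of 12 interleukin 10 pathway genes, 5 rose and 1 fell in ileum with WT and 1 rose with Δchat. Of all genes 13.7% rose with WT and 8.31% with Δchat, so the 1 of 12 is near the share of all genes. The target *Socs3* rose by 0.54 with WT and had 0.04 with Δchat, and the kinase gene *Tyk2* rose by 0.41 and had 0.18. Of 16 TGF-beta pathway genes, 0 rose and 1 fell with WT, and 1 rose and 2 fell with Δchat. The ligand *Tgfb3* fell by 0.68 with WT and by 0.75 with Δchat, *Smad3* fell by 0.47 with Δchat, and the receptor *Tgfbr1* rose by 0.56 with Δchat. Of 17 ligands and partner receptors of the members, 6 rose and 1 fell with WT, and 5 rose with Δchat. *Cd80*, a ligand of Ctla4, rose by 1.56 with WT and had 0.84 with Δchat (adjusted p = 0.0827). *Cd96* and *Cd226*, which share ligands with Tigit, rose by 1.46 and 0.84 with WT and by 1.01 and 0.85 with Δchat. Without Δchat mouse 2, *Tgfb3* did not pass with Δchat (-0.65, adjusted p = 0.0775), while *Smad3*, *Tgfbr1*, *Cd96* and *Cd226* did.

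The genes whose log2 CPM over the 16 libraries was most like that of *Foxp3*, among 13132 named genes, were *Tnfrsf9* (Pearson r = 0.957), *Ky* (0.956), *Hopx* (0.925), *Hif1a* (0.902), *Frmd5* (0.898) and *Rbpj* (0.881). Without Δchat mouse 2, over 14 libraries, these r values ran from 0.816 to 0.943. *Ky* repeated the levels of that mouse, with 21.8 CPM in its colon and 20.4 CPM in its ileum, against 1.11 to 2.69 CPM in the other Δchat libraries. The genes most like *Il10* were *Zdhhc23* (0.957), *Mapkapk2* (0.951), *Cd4* (0.948), *Cass4* (0.948), *Pvrig* (0.946) and *Fyb* (0.946), with r of 0.934 to 0.954 without mouse 2. These r values are descriptions, since colon and ileum of a mouse share their source and all libraries share the step between tissues.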

How the data were processed

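The authors deposited 1 table of estimated counts per gene for the 16 libraries. Per the submitters' processing notes they used cutadapt 5.0, Salmon 1.4.0 and GRCm39. Values that were not whole made up 34.8 to 40.7% per library, and all were rounded to whole counts. Symbols were known for 35105 of the 35647 gene identifiers. Other processing steps are not given in the sources used here.

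Groups came from the sample titles. Fits used edgeR 4.0.16 under R 4.3.3, with filterByExpr, TMM scaling and a robust quasi-likelihood test, 2-sided. The p values were adjusted by Benjamini-Hochberg over every gene in the fit, with a threshold of 0.05. Each strain comparison used the 8 libraries of 1 tissue, and the comparisons between tissues used 1 fit of 16 libraries. All CPM share 1 TMM scale over the 16 libraries, and log2 CPM have a prior count of 2. Ratios to T cell counts were compared by exact permutation tests in SciPy 1.17.1 (pseudocount 0.5). The fits were also run on simulated counts. Those libraries were drawn independently, without an outlying mouse or an effect shared by the tissues of a mouse, so neither feature was tested.

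Libraries of 1 strain with the same replicate number were taken as colon and ileum of 1 mouse, since the design gives 4 mice per strain. As a check, same-numbered libraries correlated at r of 0.35 to 0.60 over 185 immunoglobulin variable segments, each best with its own number in 8 of 8 mice. That check was chosen after the data were seen. Over all 13872 genes r ran from -0.21 to 0.32, with the own number best in 3 of 8. Numbers do not pair mice across strains.

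Members and lists were chosen with earlier results of these data known. Named genes were all 10 members, up to 4 called members of each list by smallest p or, with none called, the 3 most abundant, and the 6 properly named genes most correlated with *Foxp3* and with *Il10*. Alternatives were RLE scaling, other filters on low counts, DESeq2 1.42.0, limma-voom (limma 3.58.1), removal of 390 immunoglobulin genes, a T cell or an epithelial score as covariate, a replicate block, 1 fit for both tissues and each library left out in turn. Leaving out both libraries of Δchat mouse 2, alone or with the block, was added after the data were seen.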

Additional observations from a re-analysis of the deposited data

Results flagged for a closer look

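Each group of 4 libraries was checked for a single library far from the other 3, by the gap to its nearest neighbour over the range of the group. Of 40 groups (10 members, 4 groups), 10 held such a library, and 9 of the 10 were replicate 2 of the Δchat strain. Chance gives about 1 flag in 20 groups, but the ileum library of that replicate was known to be high in these genes when they were chosen, so its flags are a description and no test. In colon Δchat these were *Foxp3* at 73.5 CPM, *Ikzf2* at 59.9 CPM and *Tnfrsf4* at 37.6 CPM. In ileum Δchat they were *Foxp3* at 88.4 CPM, *Ikzf2* at 89.3 CPM, *Il2ra* at 52.5 CPM, *Tnfrsf4* at 45.2 CPM, *Tnfrsf18* at 43.7 CPM and *Tigit* at 42.9 CPM. The other was *Tigit* in ileum WT replicate 2, at 44.7 CPM against 27.0 to 29.5 CPM in the other 3. These groups share libraries, so the flags are not independent of each other.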

How the results depend on the processing

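No member passed in either strain comparison or in their difference under any of the 18 or 27 alternatives run. Their direction changed in 20 of 179 values in colon, 11 of 179 in ileum and 18 of 269 for the difference. Between tissues it changed in 4 of 269 values with WT and 34 of 269 with Δchat, and 1 of those was a called member, *Tigit* with WT, at -0.20 with the T cell score as covariate. The cause of the changes below was not tested.

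All genes called by strain in colon were 1, and became 10 in 1 fit over 16 libraries, 313 by DESeq2, 2 with the epithelial score, 0 with the replicate block and 0 to 3 with a library left out. In ileum they were 3, and became 42 in 1 fit, 374 by DESeq2, 164 by limma-voom, 5 with no filter on low counts, 1 with the T cell score, 0 with RLE size factors, the epithelial score, the 1 CPM filter or the replicate block, and 0 to 247 with a library left out, the highest without ileum Δchat replicate 3. For the difference they were 9, and became 58 by DESeq2, 5 with the T cell score, 3 with the replicate block, 18 without Δchat mouse 2, 5 with both of these changes, and 0 to 35 with a library left out.

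With WT, 6 members passed between tissues, and 1 did with the T cell score, 4 with no filter on low counts, 9 with the replicate block, without Δchat mouse 2 or with both changes, and 3 to 8 with a library left out. All genes called were 4380, and became 4961 by DESeq2, 5623 by limma-voom, 3758 with no filter on low counts, and 2606 to 4772 with a library left out. With Δchat, 1 member passed, and 2 did by DESeq2, 0 with the T cell score, 6 with the replicate block, 2 without Δchat mouse 2, 3 with both changes, and 0 to 4 with a library left out. All genes called were 2028, and became 2769 by DESeq2, 594 with the T cell score, 1149 without Δchat mouse 2, 839 with the replicate block as well, and 1315 to 2177 with a library left out. Mice do not pair across strains by number (r of -0.11 to 0.38 in colon and -0.31 to 0.02 in ileum). The replicate block in the strain comparisons is thus a number only. It called 0 members there, with 4 lower in ileum at an unadjusted p below 0.05, where 838 of all 14496 genes were. The block changed no other call of a member. At 2 to 22 counts per library, *Gpr83* was limited by depth.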
